A study of Homo sapiens with 8 samples.

Results

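The genes described here encode the MYC, MAX and MXD network, 9 genes of the 22439 that could be named on the array. They are *MYC*, *MYCN*, *MYCL*, *MAX*, *MXD1*, *MXD3*, *MXD4*, *MXI1* and *MNT*, chosen by name and not by their values, though earlier results of these data were known. All 9 had probes, 18 probes in all, and 8 were well above background on at least 1 array. *MYCN* was not well above background in either channel of any array.

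The study hybridized 8 Agilent oligonucleotide arrays, each with RNA of treated cells in the red dye Cy5 and control RNA of the same line in the green dye Cy3, with no dye swap. The lung squamous cell carcinoma (LUSQ) lines EBC-1 and SK-MES-1 received *miR-150-3p*, with 1 array each, and the small cell lung cancer line SBC-3 received siDONSON-1, siDONSON-2 or siDONSON-3, different siRNAs against *DONSON*, with 1 array each. In the lung adenocarcinoma line A549, *LOXL2* was edited with CRISPR/Cas9, and GE1, GE2 and GE3 gave 1 array each. The control of the transfections bears the labels mock and no transfection at once, and that of A549 was unedited. No source used here says whether GE1 to GE3 are clones or whether arrays of a line had separate control cultures. Unless stated, SEs and p-values rest on a spread pooled over the 3 treatments. It mixes differences between the LUSQ lines, between the siRNAs and between GE1 to GE3, and the last may be technical.

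MYC is a transcription factor that binds DNA as a dimer with MAX and activates genes of growth, ribosome production and metabolism. The MXD proteins, MXI1 and MNT compete for MAX at the same sites, the E-boxes, and recruit repressors. *MYC* is among the best known oncogenes, and *MYCN* and *MYCL* are its relatives that small cell lung cancers can amplify.

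*MYC* was lower than control on all 8 arrays. Only in the *LOXL2*-edited A549 cells did its mean pass the test, where *MXD1* fell too. No other member passed the test against control in any of the 3 treatments. The red over green ratio cannot tell a treatment apart from a dye preference of the probe, since the dyes were never swapped.

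The E-box with the letters CACGTG is the site that MYC-MAX and MXD-MAX dimers share. It was searched in the 250 bases before each gene's start in RefSeq promoters (GRCh38.p14); it reads the same on both strands, and it lies in 6.34% of 35116 promoters. The table holds 11 promoters of 8 members, and 2 of the 11 contain it, those of *MXD4* and *MNT*. Among the 4 genes of the extended network, *MLX* has it too. The matches follow with their surroundings, 5′ to 3′ on the gene's strand with the E-box in capitals, because they place network genes beside the letters that the network reads. A match is a description and does not show that a factor binds there.
MXD4, chr4:2262315-2262359, minus strand: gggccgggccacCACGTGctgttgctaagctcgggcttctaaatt
MNT, chr17:2401221-2401280, minus strand: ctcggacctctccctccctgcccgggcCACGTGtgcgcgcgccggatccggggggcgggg
MLX, chr17:42567023-42567082, plus strand: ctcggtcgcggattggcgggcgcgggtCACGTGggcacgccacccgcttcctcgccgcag

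The labels were checked first. *DONSON* had log2 ratios of treated over control of -2.15, -1.79 and -2.11 on the 3 siDONSON arrays, and *LOXL2* had -2.49, -2.67 and -2.59 on the 3 arrays of edited cells. Both checks went with the labels. Of the markers of each tumor type, 1 of 6 squamous genes was well above background in EBC-1 control RNA and 3 of 6 in SK-MES-1, 4 of 7 small cell genes in SBC-3 and 2 of 5 adenocarcinoma genes in A549. The lists did not separate the lines, since 2 of 5 adenocarcinoma genes were also above background in EBC-1 and 3 of 5 in SK-MES-1, and 2 of 6 squamous genes in SBC-3. Epithelial markers were present for 4 of 4 genes in EBC-1 and A549, 3 of 4 in SK-MES-1 and 2 of 4 in SBC-3, endothelial markers for 0 of 2 in every line, and leukocyte and fibroblast markers for 1 or 2 of 3 each, where the leukocyte gene *CD68* had no named probe. The squamous keratins *KRT5* and *KRT6A* were not well above background in either LUSQ line, nor was *INSM1* in SBC-3 or *NKX2-1* in A549. *KRT7* was well above background in all 4 lines. All arrays lay on 1 slide, 41.1% to 46.4% of spots were well above background in green and 48.5% to 56.2% in red, and precision is limited by how few arrays there are.

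*MYC* has a single probe, spotted 10 times on each array. Its log2 ratio was -0.77 for EBC-1 and -0.29 for SK-MES-1. It was -0.60, -0.18 and -0.24 with siDONSON-1, siDONSON-2 and siDONSON-3. It was -0.66, -0.62 and -0.60 in GE1, GE2 and GE3. The A549 values lay close together, whereas siDONSON-1 stood below the other siRNAs and EBC-1 below SK-MES-1. Spots of an array differed little, with an SD of 0.020 to 0.039. The error that the scanner software gives for the ratio, 0.21 to 0.22, is larger. Of the 8 values, 5 were outside the 95% limits of that error (1.96 times it), which are those of EBC-1, siDONSON-1 and GE1 to GE3. Of 12862 genes with a value on all 8 arrays, 4.85% were lower on all 8 and 6.48% higher on all 8, so that a shared sign is not particular to *MYC*.

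**Figure D1:**
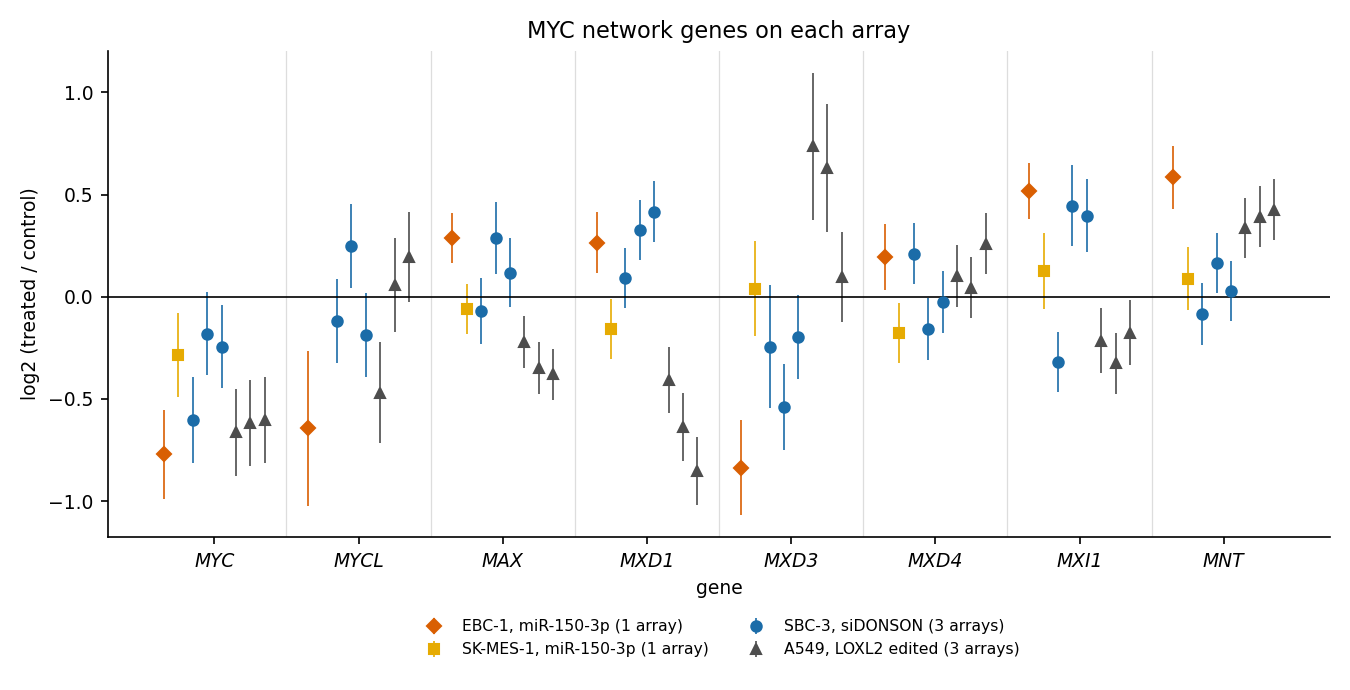
The log2 ratio of treated over control RNA (vertical axis) is plotted for 8 network genes on each array where the gene was counted. Points are single arrays, ordered within a gene as EBC-1, SK-MES-1, siDONSON-1 to siDONSON-3 and GE1 to GE3, and bars are 1 software error to each side. All 8 *MYC* points lie below 0, and the 3 A549 points of *MXD1* lie between -0.41 and -0.85.

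In edited A549 cells *MYC* fell by 0.63 on the log2 scale (SE 0.12, n = 3), to 64.7% of control (limma, adjusted p = 0.0185). Of all 15531 genes tested there, 6.54% were called lower and 7.26% higher, and of the 8 members tested 2 were called lower and 0 higher. The call was lost without any 1 of the 3 A549 arrays, with a highest adjusted p of 0.104. Set against the mean of the other arrays, which removes what the treatments share, the *MYC* difference was -0.21 (limma, adjusted p = 0.467). The SE of 0.12 comes from the pooled spread and not from the A549 arrays alone. The SD of the *MYC* values was 0.031 in A549, 0.23 with siDONSON and 0.34 with *miR-150-3p*.

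With *miR-150-3p* the mean of *MYC* was -0.53 (SE 0.15, n = 2; limma, adjusted p = 0.0846), which missed the threshold of 0.05. The LUSQ lines differed. Without SK-MES-1 the fit gave -0.77 (limma, adjusted p = 0.0257), and without EBC-1 it gave -0.29 (limma, adjusted p = 0.556). With normexp background correction and loess dye normalization together (normexp and loess), and both lines in the fit, *MYC* passed at -0.50 (limma, adjusted p = 0.0446). After subtraction of the other arrays the *MYC* difference was -0.044 (limma, adjusted p = 0.91). With the spread of the LUSQ arrays alone the mean of *MYC* did not pass (limma, adjusted p = 0.37). With a lone array the fit assumes that it varies like the other groups. In this comparison 1.9% of all genes were called lower and 1.61% higher, and 0 of the 7 members tested were called. At an unadjusted p under 0.05 there were 2 (*MYC* and *MNT*). The share of all genes under that p was not counted, so this count is not a result about the members.

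With siDONSON the mean of *MYC* was -0.34 (SE 0.12, n = 3; limma, adjusted p = 0.141). Of all genes 2.83% were called lower and 3.4% higher, and 0 of 8 members were called. At an unadjusted p under 0.05 there was 1 (*MYC*), and the share of all genes under that p was not counted. After subtraction of the other arrays the *MYC* difference turned to 0.25. The *MYC* ratios of the 3 treatments were also set against each other. The siDONSON mean was 0.29 above the *LOXL2* mean (SE 0.17; limma, adjusted p = 0.364), the *miR-150-3p* mean 0.10 above the *LOXL2* mean (SE 0.20; limma, adjusted p = 0.814), and the *miR-150-3p* mean minus the siDONSON mean was -0.19 (SE 0.19; limma, adjusted p = 0.607).

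In control RNA, *MYC* was highest in EBC-1. Levels are log2 processed green signals minus the array's 75th percentile, and in RNA pooled from many cells, fewer cells that express a gene and less RNA per cell cannot be told apart. The *MYC* level was 6.27 in EBC-1, 4.96 in SK-MES-1, 4.86 in SBC-3 (range 4.86 to 4.87, n = 3) and 4.99 in A549 (range 4.95 to 5.04, n = 3). EBC-1 was 1.28 above the next line. The gap of 0.03 between A549 and SK-MES-1 was smaller than the range of the A549 arrays, and with quantile scaling SK-MES-1 in place of SBC-3 was lowest. No test was made between lines, since arrays of a line may hold the same control RNA.

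*MYCL*, a *MYC* relative with a narrower tissue range, stood out by its level in SBC-3. Of its 2 probes 1 was not well above background on any array, and the other gave control levels of 1.54, 1.53 and 1.49 on the SBC-3 arrays, -1.77 in EBC-1, and -1.42, -1.36 and -1.02 in A549. SBC-3 was thus 9.74-fold above EBC-1 and 6.88-fold above A549. The levels of EBC-1 and A549 were low, and these folds were not recalculated with normexp background correction. In SK-MES-1 the probe was not well above background. On the same scale SBC-3 stood 23.3-fold above the lowest signal that was well above background on that array. This lower bound is approximate, since being well above background was called spot by spot. After Aquantile scaling of the software's dye-normalized signals between arrays the bound was 23.5-fold, with the background correction unchanged.

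The treatments moved *MYCL* in no common direction. Its log2 ratios were -0.64 in EBC-1, -0.12, 0.25 and -0.19 with siDONSON-1 to siDONSON-3, and -0.47, 0.06 and 0.20 in GE1 to GE3. Each group of 3 held both signs, and no value left the 95% limits of its software error. The means were -0.02 with siDONSON (limma, adjusted p = 0.952) and -0.07 with *LOXL2* editing (limma, adjusted p = 0.803). *MYCL* was not tested for *miR-150-3p*, as SK-MES-1 had no counted value.

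**Figure D2:**
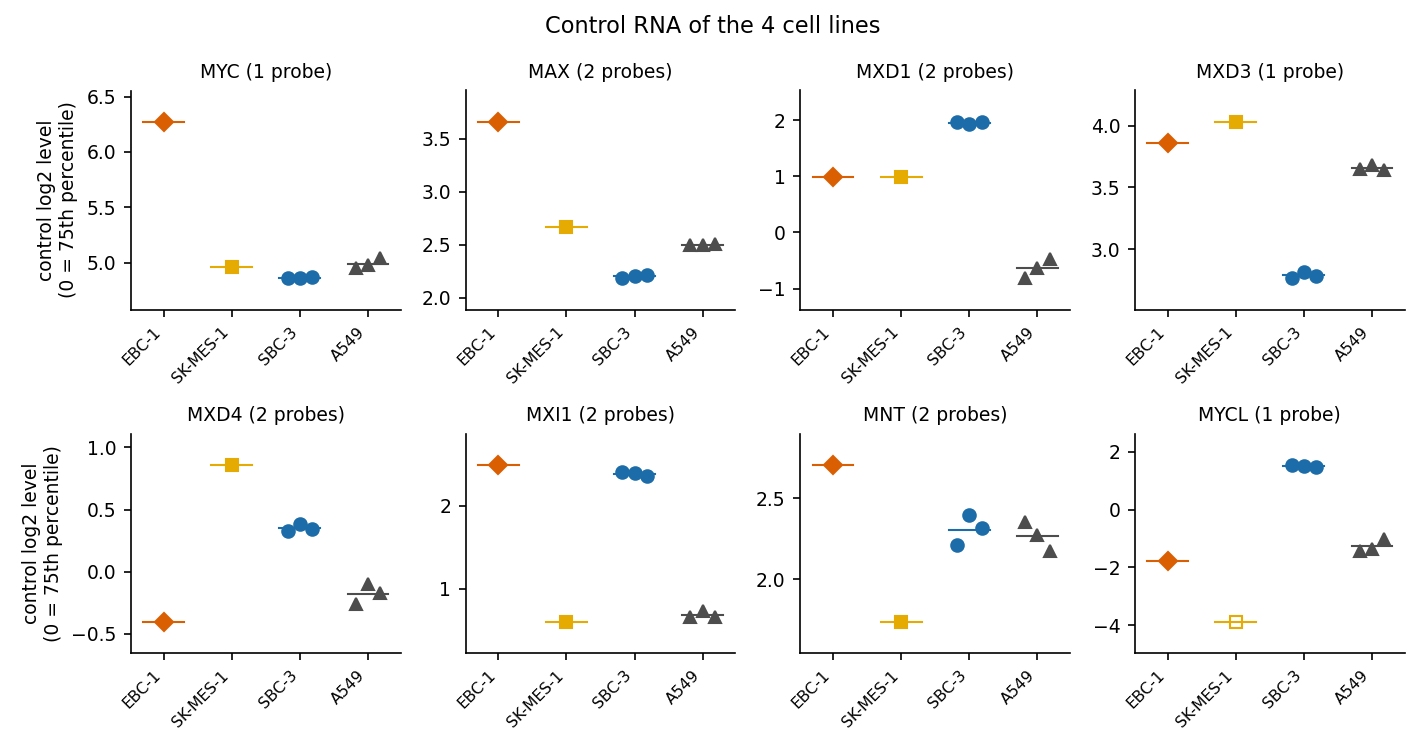
Control RNA levels of 8 network genes in the 4 lines are plotted on a log2 scale where 0 is the array's 75th percentile (vertical axes, with their own range for each gene). Points are arrays, lines are means, the open point is not well above background, and n is 1 array for EBC-1 and SK-MES-1 and 3 for SBC-3 and A549. *MYC* is highest in EBC-1 at 6.27, and *MXD1* and *MYCL* are highest in SBC-3 at 1.96 and 1.52.

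*MAX* encodes the shared partner and has 3 probes. Their mean log2 ratio was 0.29 in EBC-1, -0.06 in SK-MES-1, and -0.07, 0.29 and 0.12 with siDONSON-1 to siDONSON-3. It was -0.22, -0.35 and -0.38 in GE1 to GE3. The A549 arrays were all below 0, as was every 1 of the 3 probes there. Their mean of -0.32 (SE 0.11, n = 3) did not pass (limma, adjusted p = 0.0961), nor did siDONSON at 0.11 (limma, adjusted p = 0.56) or *miR-150-3p* at 0.11 (limma, adjusted p = 0.605).

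The probes of *MAX* disagreed elsewhere. In EBC-1 they gave 0.03, -0.15 and 0.98, and the value of 0.98 came from the dimmest. The brightest probe alone gave 0.33, 0.22 and 0.25 with the siRNAs and -0.26, -0.27 and -0.19 in A549. With that probe in place of the mean, siDONSON stood 0.51 above *LOXL2* editing (limma, adjusted p = 0.038), against 0.43 (limma, adjusted p = 0.136) with the mean of the probes.

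In control RNA *MAX* was highest in EBC-1 at 3.66, followed by SK-MES-1 at 2.67, A549 at 2.50 and SBC-3 at 2.20. EBC-1 thus held the highest level of both *MYC* and *MAX*. The neighboring lines differed by more than the range of their arrays, 0.034 at most.

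*MXD1*, a repressor that rises in differentiating cells, showed the clearest split between treatments. Its log2 ratio was -0.41, -0.64 and -0.85 in GE1 to GE3, and 0.09, 0.33 and 0.42 with siDONSON-1 to siDONSON-3. It was 0.26 for EBC-1 and -0.16 for SK-MES-1. The A549 values lay below those of all other arrays, and the share of all genes with such a gap was not counted. *MXD1* fell by 0.63 in edited A549 cells (SE 0.13, n = 3), to 64.5% of control (limma, adjusted p = 0.0197), and without 1 A549 array the adjusted p reached 0.124.

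The siDONSON mean of *MXD1* was 0.28 (SE 0.13, n = 3), which did not pass (limma, adjusted p = 0.223). It passed with the brightest probe at 0.52 (limma, adjusted p = 0.0467) and with normexp and loess at 0.25 (limma, adjusted p = 0.0269). The difference between the 2 treatments, siDONSON minus *LOXL2* editing, was 0.91 (SE 0.18) and passed (limma, adjusted p = 0.03). In that contrast 6.18% of all genes and 1 of 8 members were called. The call was lost without siDONSON-2, siDONSON-3 or any 1 of the A549 arrays, with an adjusted p of up to 0.118. The A549 call for *MXD1* held when the other arrays were subtracted, at -0.82 (limma, adjusted p = 0.0319).

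Both *MXD1* probes were well above background in both channels on every array. They gave -0.45, -0.84 and -1.03 for the first and -0.37, -0.43 and -0.68 for the second in GE1 to GE3. With the siRNAs the second probe gave 0.45, 0.44 and 0.67, whereas the first gave -0.27, 0.21 and 0.16. The probes thus shared the sign on all A549 arrays and differed in sign with siDONSON-1. With normexp and loess the A549 difference was -0.19, still called (limma, adjusted p = 0.0385).

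Among the 7 members with control levels in all lines, *MXD1* differed most. Its control level was 1.96 in SBC-3 (SD 0.019, n = 3), 0.98 in both LUSQ lines, and -0.64 in A549 (SD 0.17, n = 3). SBC-3 was 6.05-fold above A549, and 2.20-fold with normexp correction of the green channel, where *MXD3* and *MYC* differed more between lines. EBC-1 and SK-MES-1 could not be ordered, with a gap of 0.0031. The line with the lowest control level was thus the line where *MXD1* fell.

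**Figure D3:**
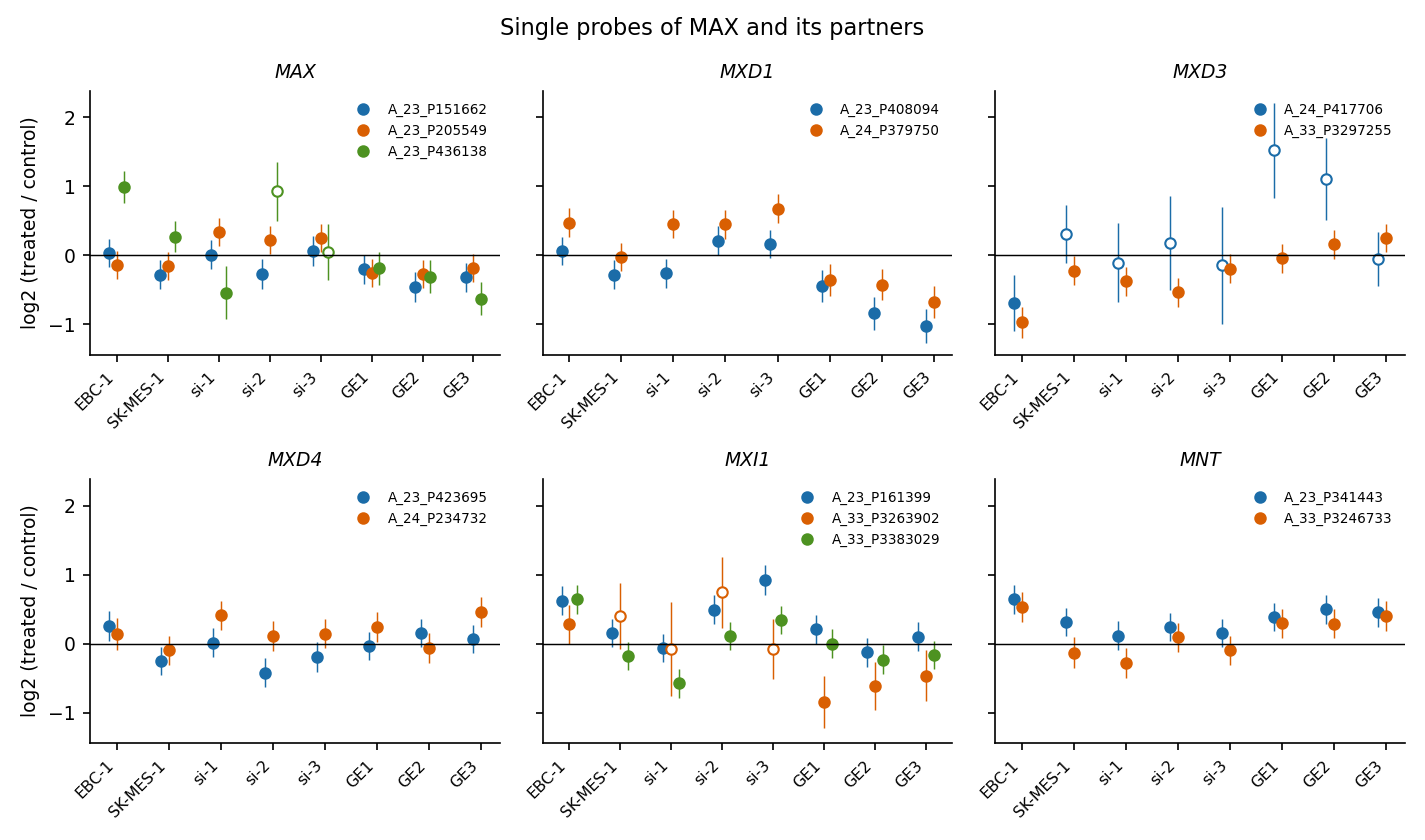
The log2 ratio of treated over control (vertical axis) is plotted for each probe of *MAX*, *MXD1*, *MXD3*, *MXD4*, *MXI1* and *MNT* on the 8 arrays (horizontal axis, where si-1 to si-3 are the siRNAs and GE1 to GE3 the edited A549 cells). Colors are probes, bars are 1 software error to each side, and open points lack a signal well above background in at least 1 channel. Both *MNT* probes are above 0 in all A549 arrays, and the open *MXD3* points at 1.52 and 1.10 stand apart from the other probe.

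*MXD3*, an MXD protein found in dividing cells, had its lowest value in EBC-1 at -0.84, against 0.04 in SK-MES-1. In EBC-1 both probes were well above background and gave -0.70 and -0.98. The gene value was -0.24, -0.54 and -0.20 with siDONSON-1 to siDONSON-3, and 0.74, 0.63 and 0.10 in GE1 to GE3. The mean of -0.33 with siDONSON (limma, adjusted p = 0.322), of 0.49 with *LOXL2* editing (limma, adjusted p = 0.13) and of -0.40 with *miR-150-3p* (limma, adjusted p = 0.291) did not pass.

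The A549 values of *MXD3* rested on its dim probe. That probe gave 1.52, 1.10 and -0.06 and was not well above background in the control channel. The bright probe gave -0.05, 0.15 and 0.25, and it was below 0 in SK-MES-1 at -0.22. Control levels of the bright probe were 4.03 in SK-MES-1, 3.86 in EBC-1, 3.66 in A549 and 2.79 in SBC-3. SBC-3, highest for *MXD1*, was lowest for *MXD3*.

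*MXD4*, a repressor of the same family, was within the 95% software limits of 0 on all 8 arrays. Its values ran from -0.18 in SK-MES-1 to 0.26 in GE3, with means of 0.01 with *miR-150-3p* (limma, adjusted p = 0.975), 0.01 with siDONSON (limma, adjusted p = 0.97) and 0.13 with *LOXL2* editing (limma, adjusted p = 0.475). Its control level was 0.86 in SK-MES-1, 0.35 in SBC-3, -0.18 in A549 and -0.41 in EBC-1.

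*MXI1*, a further MAX partner that represses MYC targets, gave 0.52 for EBC-1 and 0.12 for SK-MES-1. With the siRNAs it gave -0.32, 0.45 and 0.40, and in GE1 to GE3 -0.22, -0.33 and -0.18. siDONSON-1 thus went against the other siRNAs, whereas the A549 arrays shared a sign. The means of 0.32 with *miR-150-3p* (limma, adjusted p = 0.316), 0.17 with siDONSON (limma, adjusted p = 0.538) and -0.24 with *LOXL2* editing (limma, adjusted p = 0.36) did not pass. On siDONSON-1 only 2 of its 3 probes were counted, and in A549 the dimmest probe gave -0.85, -0.62 and -0.46, below both others.

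*MXI1* control levels fell into a high and a low pair of lines. They were 2.49 in EBC-1 and 2.39 in SBC-3, against 0.69 in A549 and 0.60 in SK-MES-1. With quantile scaling SBC-3 was highest.

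*MNT*, a repressor that many cell types express, was above 0 on 7 of 8 arrays. It gave 0.58 in EBC-1, 0.09 in SK-MES-1, and -0.08, 0.17 and 0.03 with the siRNAs. In GE1 to GE3 it gave 0.34, 0.39 and 0.43. Both probes were above 0 on these A549 arrays. The mean of 0.38 in A549 (SE 0.11, n = 3) missed the threshold (limma, adjusted p = 0.062), as did 0.34 with *miR-150-3p* (limma, adjusted p = 0.157) and 0.04 with siDONSON (limma, adjusted p = 0.868). *MNT* passed in A549 with the brightest probe at 0.44 (limma, adjusted p = 0.0217). With normexp and loess it passed in A549 at 0.29 (limma, adjusted p = 0.0105) and with *miR-150-3p* at 0.28 (limma, adjusted p = 0.0414). Without EBC-1 or without SK-MES-1 the A549 mean of *MNT* passed (limma, adjusted p = 0.0256), and without 1 A549 array the adjusted p reached 0.242.

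In control RNA *MNT* varied least, from 2.70 in EBC-1 to 1.74 in SK-MES-1, a 1.95-fold difference. SBC-3 at 2.31 and A549 at 2.27 differed by less than the range of their arrays. Of the 7 members with a probe above background in control RNA on all arrays, all but *MNT* had lines more than 2-fold apart, 6 of 7, beside 69.4% of 11271 genes. With normexp correction of the green channel the count was 3, and the share of all genes was not counted there.

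The change of *MYC* from control was set against that of its antagonists within each array. The difference is the *MYC* log2 ratio minus the mean log2 ratio of *MXD1*, *MXD3*, *MXD4*, *MXI1* and *MNT*, and it does not compare RNA levels. It was -0.92 for EBC-1 and -0.27 for SK-MES-1. It was -0.53, -0.23 and -0.37 with the siRNAs, and -0.77, -0.64 and -0.55 in GE1 to GE3. The antagonist means ran from -0.069 to 0.14, so that the difference mostly follows the *MYC* ratio itself. The *MYC* log2 ratio was below that of at least 4 of the 5 antagonists on every array. *MYC* also lay below most genes, at percentiles of 5.38 to 26.7 among all genes of an array. The count is thus not a result about the antagonists. On 4 arrays 1 antagonist had a lower ratio than *MYC*. This was *MXD3* in EBC-1 and with siDONSON-2 and *MXD1* in GE2 and GE3. The A549 means include *MXD3* values that rested on its dim probe.

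With single arrays, no member was more than 2-fold from control in EBC-1, where 12% of all genes were, or in SK-MES-1, where 3.83% were. The LUSQ arrays shared the sign of 3 of 7 members, *MYC*, *MXI1* and *MNT*. Between treatments, 0 of 7 members differed in *miR-150-3p* minus siDONSON, where 1.43% of all genes did, and 0 of 7 in *miR-150-3p* minus *LOXL2* editing, where 2.4% did. At an unadjusted p under 0.05 these counts were 0 and 3, and the share of all genes under that p was not counted.

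For each member with all its values well above background, the genes with the most similar ratios over the 8 arrays were named. For *MYC* they were *ZMYM1* (Pearson r = 0.972), *DUSP11* (0.968) and *CPSF3* (0.965). For *MXD1* they were *CEP135* (0.980), *CATSPERZ* (0.979) and *YBX3* (0.978), and for *MNT* they were *SMIM14* (0.976), *POMT1* (0.976) and *SIRT3* (0.970). These are the highest of 11210 genes compared, the arrays share dyes and slide, and the values are descriptions. For *MAX*, *MXD3*, *MXD4* and *MXI1* the leading genes were *TNK2* (0.978), *ADNP-AS1* (0.983), *ARPC4-TTLL3* (0.955) and *ISG20* (0.959).

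The extended network holds MLX, its partners MLXIP and MLXIPL, which respond to glucose, and MGA, a MAX partner. *MLXIPL* fell in siDONSON cells, with log2 ratios of -1.25, -0.62 and -1.04 and a mean of -0.97 (SE 0.18, n = 3; limma, adjusted p = 0.0276). Leaving out 1 array raised the adjusted p to as much as 0.103, and with normexp and loess *MLXIPL* was at -0.15 (limma, adjusted p = 0.17). The other 3 genes were not called there, and 0 of 4 were called with *miR-150-3p* or in edited A549 cells. *MLXIP* was at -0.85 for EBC-1 and -0.43 for SK-MES-1, with a mean of -0.64 (limma, adjusted p = 0.0605). *MLX* was at 0.14 and -0.24 and *MGA* at -0.52 and -0.02 in these lines.

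The cofactors and regulators of MYC were 21 genes, of which 0 of 20 tested were called with *miR-150-3p*, 1 of 21 with siDONSON and 2 of 21 with *LOXL2* editing. These counts are near the shares over all genes, which were 1.9% lower and 1.61% higher, 2.83% lower and 3.4% higher, and 6.54% lower and 7.26% higher. *PIM1*, a kinase that acts with MYC, rose with siDONSON to 0.34, 0.40 and 0.93 (limma, adjusted p = 0.0431). In A549, *USP28*, an enzyme that removes ubiquitin from MYC, fell to -0.90, -0.67 and -0.61 (limma, adjusted p = 0.0173). *BIN1*, a MYC-binding protein, rose there to 0.40, 0.45 and 0.53 (limma, adjusted p = 0.0309). Leaving out 1 array took each of these calls away, with adjusted p-values of up to 0.11, 0.106 and 0.161. With normexp and loess *USP28* in A549 was at -0.09 and *PIM1* with siDONSON at 0.36.

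The 54 MYC-induced genes are known targets of ribosome production, nucleotide synthesis and metabolism. The list was written with earlier results of these data known, so its counts are descriptions and not an independent test of MYC activity. In edited A549 cells 13 of 54 were called lower and 0 higher, and 46 lay below 0, with a median of -0.31 beside 0.02 over all genes. Over all genes 6.54% were called lower and 7.26% higher, and 46.4% to 47.7% lay below 0 on these arrays. *HK2*, the first enzyme of glycolysis, fell to -1.10, -1.94 and -2.12 (limma, adjusted p = 0.00626), a call lost with normexp and loess at -0.33 (limma, adjusted p = 0.145). *TERT*, the catalytic subunit of telomerase, fell to -0.81, -0.94 and -0.80 (limma, adjusted p = 0.0334). The *TERT* call was lost without siDONSON-3 or any 1 of the A549 arrays, with an adjusted p of up to 0.161, and after subtraction of the other arrays, at -0.38 (limma, adjusted p = 0.419). The count was 3 without GE1, 1 without GE2 or GE3, and 2 after subtraction of the other arrays. Over all genes 1.53% were called lower without GE1, 1.21% without GE2, 1.64% without GE3 and 2.78% after that subtraction. After it the list median was -0.074, with 33 of 53 below 0. With normexp and loess the count was 20, where 8.72% of all genes were called lower. With the spread of the A549 arrays alone it was 33, where 18.4% of all genes were called lower.

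With *miR-150-3p* 0 of 54 MYC-induced genes were called, with 47 below 0 and a median of -0.35. The array medians were -0.50 for EBC-1 and -0.16 for SK-MES-1, beside 0.05 and 0.02 over all genes. In the main fit 1.9% of all genes were called lower. Normexp and loess gave 12 calls, all lower, where 5.34% of all genes were called lower. With both channels required to be well above background 6 were called lower, where 4.64% of all genes were. After subtraction of the other arrays 0 were called, 36 of 53 lay below 0 and the median was -0.11. With siDONSON 2 of 53 were called lower, *SORD* of polyol metabolism at -0.53 (limma, adjusted p = 0.0358) and *LDHA* of glycolysis at -0.44 (limma, adjusted p = 0.0339), and 41 lay below 0, with a median of -0.10. Over all genes 2.83% were called lower. The count ran from 0, without siDONSON-3 or any 1 of the A549 arrays, to 5, without EBC-1 or without SK-MES-1, and both calls were lost on leaving out single arrays, with adjusted p-values of up to 0.127 for *SORD* and 0.109 for *LDHA*. After subtraction of the other arrays the siDONSON median turned to 0.19, with 3 genes called higher.

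**Figure D4:**
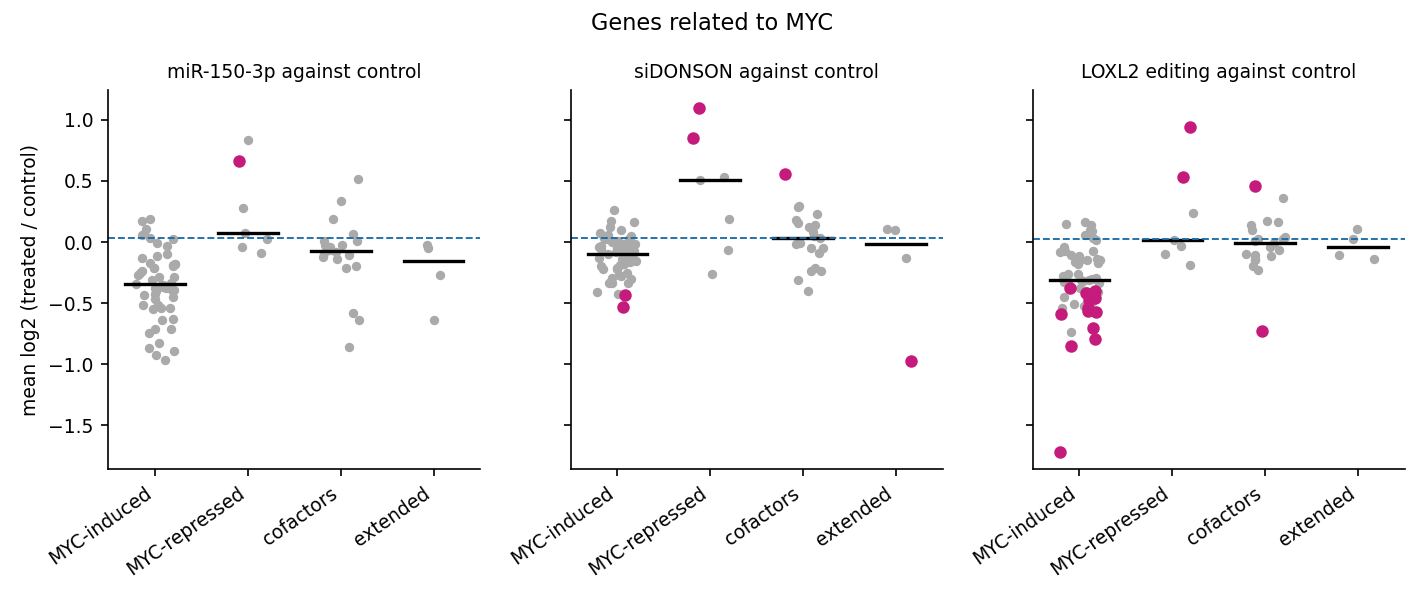
The mean log2 ratio of treated over control (vertical axis) is plotted for each gene of 4 lists in the 3 treatments. Filled magenta points passed the test, gray points did not, black bars are list medians and the dashed blue line is the median of all genes tested. In edited A549 cells 13 MYC-induced genes passed, all lower, and with *miR-150-3p* 0 passed although 47 of 54 lay below 0.

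The 7 MYC-repressed genes, also listed with earlier results of these data known, include inhibitors of the cell cycle. *CDKN1B*, which encodes p27, rose with *miR-150-3p*, with values of 0.71 for EBC-1 and 0.61 for SK-MES-1 (limma, adjusted p = 0.0363), and in edited A549 cells, with 0.54, 0.64 and 0.41 (limma, adjusted p = 0.013). *CDKN1A*, which encodes p21, rose with siDONSON to 0.86, 1.22 and 0.46 (limma, adjusted p = 0.0358) and in A549 to 0.98, 0.89 and 0.96 (limma, adjusted p = 0.0149). *NDRG1*, a stress-response gene, rose with siDONSON to 0.66, 1.04 and 1.59 (limma, adjusted p = 0.0169). So 1 of 7 was called with *miR-150-3p* and 2 of 7 in each of the others, all higher. The list medians were 0.07, 0.51 and 0.02. Over all genes 1.61%, 3.4% and 7.26% were called higher. Each call was lost without at least 1 of the arrays, with adjusted p-values of up to 0.203. Normexp and loess left 1 of the 2 siDONSON calls. After subtraction of the other arrays 0 of 7 were called with *miR-150-3p* and in A549, and with siDONSON 1 was called lower and 1 higher.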

How the data were processed

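For each array the authors deposited the output of Agilent Feature Extraction 12.1.1.1, which holds intensities of both channels and a log10 ratio of red over green. That software, run by the authors, had subtracted the background of the processed intensities, removed spatial trends and normalized the dyes. The deposited table of log10 ratios equals that of the arrays, with a largest difference of 0. The array design names build hg19, and genes were named through RefSeq accessions (GRCh38.p14, names only): 31104 of 33080 probes with such an accession matched.

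Log2 ratios were red over green processed intensity. Of 60901 non-control spots, 81 to 133 per array were marked as outliers and left out, and 0 were saturated. Spots of a probe were averaged. A probe counted on an array when well above background in at least 1 channel, and a gene is the mean of its counted probes, so that dim probes weigh as much as bright ones. limma 3.58.1 (R 4.3.3) fitted 3 group means to all 8 arrays (5 residual degrees of freedom), with EBC-1 and SK-MES-1 as 2 samples, and tested them against 0 and each other, with Benjamini-Hochberg adjustment over all genes at 0.05. The test leaves out the spread of the control RNA and keeps any dye bias of a gene. Control channels of a line differed less than treated ones (SD 0.109 to 0.123 against 0.361 to 0.488 in SBC-3, 0.083 to 0.090 against 0.120 to 0.166 in A549). The normexp alternative (offset 50) changed background correction and, for ratios, dye normalization (loess) together, and used median spot signals, since the files hold no mean signal. The approximate lower bounds for *MYCL* in SK-MES-1 are open to dye bias. The fit was tested on simulated data.

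Named genes were the 9 members, the 4 extended network genes, up to 2 lowest and 2 highest called genes of each other list, the label checks and the genes most similar to a member. Members and lists were chosen with earlier results of these data known. Alternatives were other normalization, centring, filters, probes, spreads and thresholds, subtraction of the other arrays, a replicate block and leaving out each array.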

Additional observations from a re-analysis of the deposited data

Results flagged for a closer look

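*MXD1* differed between siDONSON and *LOXL2* editing by 0.91 on the log2 scale (limma, adjusted p = 0.03), a contrast where 6.18% of all genes were called. The lines, siRNAs and edits differ together between these groups and cannot be told apart.

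Under *miR-150-3p*, EBC-1 and SK-MES-1 had opposite signs for 4 members, and this was not tested, with 1 array each. EBC-1 minus SK-MES-1 was 0.35 for *MAX*, 0.42 for *MXD1*, -0.88 for *MXD3* and 0.37 for *MXD4*. For *MAX*, *MXD1* and *MXD4* at least 1 of the 2 values was within the 95% software limits of 0, as was the SK-MES-1 value of *MXD3*. These signs are those of probe means. The brightest *MAX* probe was below 0 in both lines (EBC-1 -0.15, SK-MES-1 -0.16). So was the bright *MXD3* probe (EBC-1 -0.98, SK-MES-1 -0.22). The positive *MXD3* mean of SK-MES-1 came from the dim probe (0.30), not well above background in control RNA. Each probe of *MXD1* and *MXD4* kept the opposite signs.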

How the results depend on the processing

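Of 749 recalculated member values, 671 kept direction and side of the threshold, 22 passed anew, 13 lost the call and 43 changed sign, the farthest at -0.42; causes were not tested. Normexp and loess stands for background correction and dye normalization changed together. Members called with *miR-150-3p* (0) became 2 with normexp and loess, where 5.34% of all genes were called lower and 6.03% higher. They became 1 at an adjusted p under 0.1, where 7.56% were lower and 7.11% higher. The count also moved when SK-MES-1 was left out, a fit with 1 array in that group. With siDONSON (0) the members called became 1 without a filter (*MYCN*, at background), with the brightest probe (*MXD1*) and with normexp and loess (*MXD1*). Over all genes these settings called 9.51%, 3.17% and 3.85% lower and 3.4%, 3.96% and 7.15% higher. With *LOXL2* editing (2) the members called became 4 with normexp and loess, where 8.72% of all genes were called lower and 12.1% higher. They became 4 at an adjusted p under 0.1, where 10% were lower and 12.3% higher. The count was 5 with the spread of the A549 arrays alone, where 18.4% of all genes were lower and 19.5% higher. It was 1 after subtraction of the other arrays, where 2.78% were lower and 2.52% higher. It was 0 without any 1 of the A549 arrays. For siDONSON minus *LOXL2* editing (1) the members called became 2 with the brightest probe or with normexp and loess, where the share of all genes was not counted. They became 0 to 1 when arrays were left out. For *miR-150-3p* minus *LOXL2* editing (0) the count moved only when SK-MES-1 was left out, a fit with 1 array in that group. With the replicate number as a replicate block the siDONSON and *LOXL2* contrast held 0 member calls; same-numbered arrays deviated with r of -0.020, -0.014 and -0.008, so the numbers do not pair the samples. Without a filter 1 member passed 2-fold in EBC-1, *MYCL*. With normexp correction of the green channel 3 members had lines more than 2-fold apart, and the share of all genes was not counted there.

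Signs changed as follows. The brightest probe gave -0.15 (*MAX*), -0.0011 (*MXD4*) and 0.080 (*MLX*) with *miR-150-3p*, -0.20 (*MXD4*), -0.042 (*MXI1*) and 0.010 (*MLXIP*) with siDONSON, -0.42 (*MAX*) and 0.20 (*MXD4*) for *miR-150-3p* minus siDONSON, and 0.036 (*MNT*) for *miR-150-3p* minus *LOXL2* editing. Normexp and loess gave -0.0028 (*MAX*) and 0.020 (*MLX*) with *miR-150-3p*, 0.018 (*MYCL*) and 0.011 (*MLXIP*) with siDONSON, 0.0051 (*MYCL*) and 0.0076 (*MLXIP*) with *LOXL2* editing, and -0.094 (*MAX*) for *miR-150-3p* minus siDONSON. Median centring gave -0.026 (*MXD4*) with *miR-150-3p*, -0.030 (*MXD4*) and -0.0022 (*MNT*) with siDONSON, and 0.0035 (*MXD4*) between them. Subtraction of the other arrays gave -0.063 (*MXD4*) and 0.45 (*MLXIPL*) with *miR-150-3p*, 0.25 (*MYC*), -0.075 (*MXD4*), -0.33 (*MNT*), 0.19 (*MLXIP*) and 0.11 (*SORD*) with siDONSON, and 0.22 (*MLXIP*) with *LOXL2* editing. Without a filter *MYCL* gave 0.030 with *LOXL2* editing and -0.084 for siDONSON minus *LOXL2* editing.

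When single arrays were left out, the following ranged across 0. With *miR-150-3p* these were *MAX* (-0.060 to 0.29), *MXD1* (-0.16 to 0.26), *MXD3* (-0.84 to 0.039), *MXD4* (-0.18 to 0.20), *MLX* (-0.24 to 0.14) and *MLXIPL* (-0.17 to 0.13). With siDONSON these were *MYCL* (-0.15 to 0.064), *MXD4* (-0.092 to 0.093), *MNT* (-0.028 to 0.098) and *MLXIP* (-0.24 to 0.011). With *LOXL2* editing these were *MYCL* (-0.21 to 0.13) and *MLXIPL* (-0.14 to 0.26), and for siDONSON minus *LOXL2* editing *MYCL* (-0.15 to 0.19). For *miR-150-3p* minus siDONSON these were *MYC* (-0.43 to 0.056), *MAX* (-0.17 to 0.18), *MXD3* (-0.51 to 0.37), *MXD4* (-0.19 to 0.19) and *MXI1* (-0.10 to 0.34), and for *miR-150-3p* minus *LOXL2* editing *MYC* (-0.14 to 0.34), *MXD4* (-0.31 to 0.060) and *MNT* (-0.30 to 0.20). Signals near background limit *MYCN*, *MYCL* and the dim probes of *MXD3*, *MXI1* and *MAX*. The alternatives for the MYC-induced and MYC-repressed genes other than normexp and loess and median centring were chosen after seeing the data.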
